A study of Caenorhabditis elegans with 2 samples.

Results

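The regions described here are the 663 promoter peaks of NHR-80 on chromosome X of Caenorhabditis elegans. They were chosen by place alone. A peak of the authors' thresholded list was taken when its summit, the position of its highest point, lay on X between 1000 bp upstream and 200 bp downstream of the annotated 5' end of a protein-coding gene. The 663 were 19.8% of the 3349 promoter summits on the nuclear chromosomes, and 40.6% of the 1632 thresholded peaks on X. The whole list held 7038 peaks.

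The peaks came from ChIP-seq, in which DNA bound by a tagged protein is recovered with an antibody and sequenced. The animals were whole hermaphrodite young adults of strain OP460, taken 64 hours after synchronisation as starved L1 larvae. All carried the integrated array wgIs460, a transgene for NHR-80 with a C-terminal GFP-FLAG tag, and the unc-119(tm4063) III allele. There was 1 group with 2 biological replicates, and no untagged or untreated group was analysed here. The tagged protein is an extra copy in a single line, so its level need not be that of the native protein, and a whole animal does not show which tissue a peak came from. The sample description names an antibody against GFP, while another label names nhr-80 as its target.

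The receptor NHR-80 belongs to the large HNF4-like group of nematode hormone receptors, and is known for its part in fatty acid desaturation and in the long life of animals without a germline. Much of lipid metabolism in this animal takes place in the intestine, where the GATA factor ELT-2 binds the sequence TGATAA at many promoters. The X chromosome of hermaphrodites is present in a pair and is subject to dosage compensation, which lowers its expression to the level of the single X of males. X is known to carry few genes used in the germline, and its genes stand farther apart than those of the autosomes.

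The sequences that follow show what lay under the summits, on the plus strand of X in build ce11, the WBcel235 assembly, from 50 bp before the summit to 50 bp after it. All of them lie upstream of the nearest start and outside annotated exons. Capitals mark matches, on either strand, to any of 10 short sequences that were counted, and lower case is the rest. The first set holds members with TGATAA or its reverse complement. They are K06G5.1 at chrX:14214685-14214785, abhd-3.2 at chrX:978433-978533, the stronger summit of elt-2 at chrX:10480712-10480812 and the vitellogenin gene vit-5 at chrX:3403315-3403415.
K06G5.1: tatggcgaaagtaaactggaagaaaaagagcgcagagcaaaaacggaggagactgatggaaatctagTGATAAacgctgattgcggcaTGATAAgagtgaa
abhd-3.2: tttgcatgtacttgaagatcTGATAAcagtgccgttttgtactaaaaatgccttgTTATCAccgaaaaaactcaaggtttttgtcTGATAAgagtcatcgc
elt-2: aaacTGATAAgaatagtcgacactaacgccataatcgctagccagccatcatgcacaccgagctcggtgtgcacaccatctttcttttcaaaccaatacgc
vit-5: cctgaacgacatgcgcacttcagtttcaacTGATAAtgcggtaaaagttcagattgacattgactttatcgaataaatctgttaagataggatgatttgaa

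The second set shows that the strongest members had none of the 10. They are the promoters of serp-1.1 at chrX:15841241-15841341, sem-5 at chrX:7962333-7962433 and trap-2 at chrX:768191-768291.
serp-1.1: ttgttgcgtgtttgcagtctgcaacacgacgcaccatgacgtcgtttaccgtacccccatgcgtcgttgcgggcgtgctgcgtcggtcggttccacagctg
sem-5: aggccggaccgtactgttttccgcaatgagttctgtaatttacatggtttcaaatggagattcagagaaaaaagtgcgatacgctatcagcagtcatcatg
trap-2: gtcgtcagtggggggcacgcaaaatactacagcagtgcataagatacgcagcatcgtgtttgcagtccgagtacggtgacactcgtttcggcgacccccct

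The third set shows other counted sequences. C44C10.11 at chrX:11710457-11710557 holds the reverse complement of CTGCGTCT, C07D8.6 at chrX:7341055-7341155 that of GAGAGAGA, and ins-39 at chrX:1345022-1345122 holds GCGCAGGG.
C44C10.11: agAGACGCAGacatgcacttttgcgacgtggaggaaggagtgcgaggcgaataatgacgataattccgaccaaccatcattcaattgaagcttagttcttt
C07D8.6: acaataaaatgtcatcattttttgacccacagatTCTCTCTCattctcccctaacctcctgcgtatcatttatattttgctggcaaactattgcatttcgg
ins-39: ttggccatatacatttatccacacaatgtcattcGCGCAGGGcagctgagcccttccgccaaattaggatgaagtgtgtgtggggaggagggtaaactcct

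The 30 strongest X promoter peaks stood at genes of varied and in part little-known function. A signal value is the authors' own score for a peak. It is on the scale of each list, so values are compared within a list only, and a replicate's value is that of its strongest peak overlapping the member. The highest member lay 281 bp upstream of serp-1.1 (X: 15841572 to 15842379, plus strand), with 1709 in the thresholded list, 885 in replicate 1 and 829 in replicate 2. It ranked 2 in all 3 lists. The peak 660 bp upstream of sem-5, which encodes a Grb2-like adaptor of receptor tyrosine kinases, had 1370 in the thresholded list, 732 in replicate 1 and 639 in replicate 2. The peak at trap-2, for a subunit of the translocon-associated complex of the endoplasmic reticulum, had 1351, 752 and 597 in the same order, and its summit also lay in the window of ile-2. The order of these 3 genes differed between the replicates: trap-2 was above sem-5 in replicate 1 and below it in replicate 2.

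The next members were sym-4, hsp-3, puf-9 and nhr-35. The peak at sym-4, 203 bp upstream, had 1316 in the thresholded list, 728 in replicate 1 and 589 in replicate 2. The summit of hsp-3, which encodes a BiP-type chaperone, lay 41 bp upstream of the start, with 1311 in the thresholded list, 697 in replicate 1 and 615 in replicate 2. The Pumilio family gene puf-9 had 1272, 698 and 579, with its summit at -303 bp. The nuclear hormone receptor gene nhr-35 had 1192, 673 and 525, with its summit at -302 bp. These 4 ranked between 8 and 22 in the replicate lists. The next nuclear receptor gene of X, nhr-3, had 423 in the thresholded list.

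After them came C05G5.2, with 1013 in the thresholded list, 538 in replicate 1 and 475 in replicate 2. The peak at sucl-1, a gene of the succinyl-CoA step of the citric acid cycle, had 996 in the thresholded list, 529 in replicate 1 and 465 in replicate 2. The intestinal oligopeptide transporter gene pept-1 had 988, 506 and 478, with its summit 101 bp upstream. The peak of tatn-1, for tyrosine aminotransferase, had 922, 503 and 417. The less studied R04E5.9 (903), C44C10.11 (901), T04F8.7 (822), C07D8.6 (807), K06G5.1 (806), C52B11.5 (770), C18B2.5 (726) and F14B8.6 (719.8) were also among the 30. Others of known role were hyl-2, a ceramide synthase gene (750), selt-1.1, for a selenoprotein T homologue (789), ain-1, for a GW182-like protein of microRNA silencing (776), and bet-2, for a bromodomain protein (746). The last of the 30 was elt-2 (X: 10481240 to 10483441, plus strand), with 710 in the thresholded list, 371 in replicate 1 and 340 in replicate 2.

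All 30 had a higher signal value in replicate 1 than in replicate 2, by a ratio from 1.01 at C52B11.5 to 1.57 at bet-2. Over all members the median ratio was 1.15, and the scale of each list sets this ratio. Of the 30 summits, 29 lay upstream of the nearest start, F14B8.6 being the exception at +18 bp, and 4 lay in 2 windows. Their sequence was rich in G and C: the stretch within 50 bp of the summit had a median of 48.5% G and C, from 35.6% at hyl-2 to 65.3% at hsp-3, and 14 of the 30 had 50% or more, as had 159 of all members (24.0%).

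**Figure D1:**
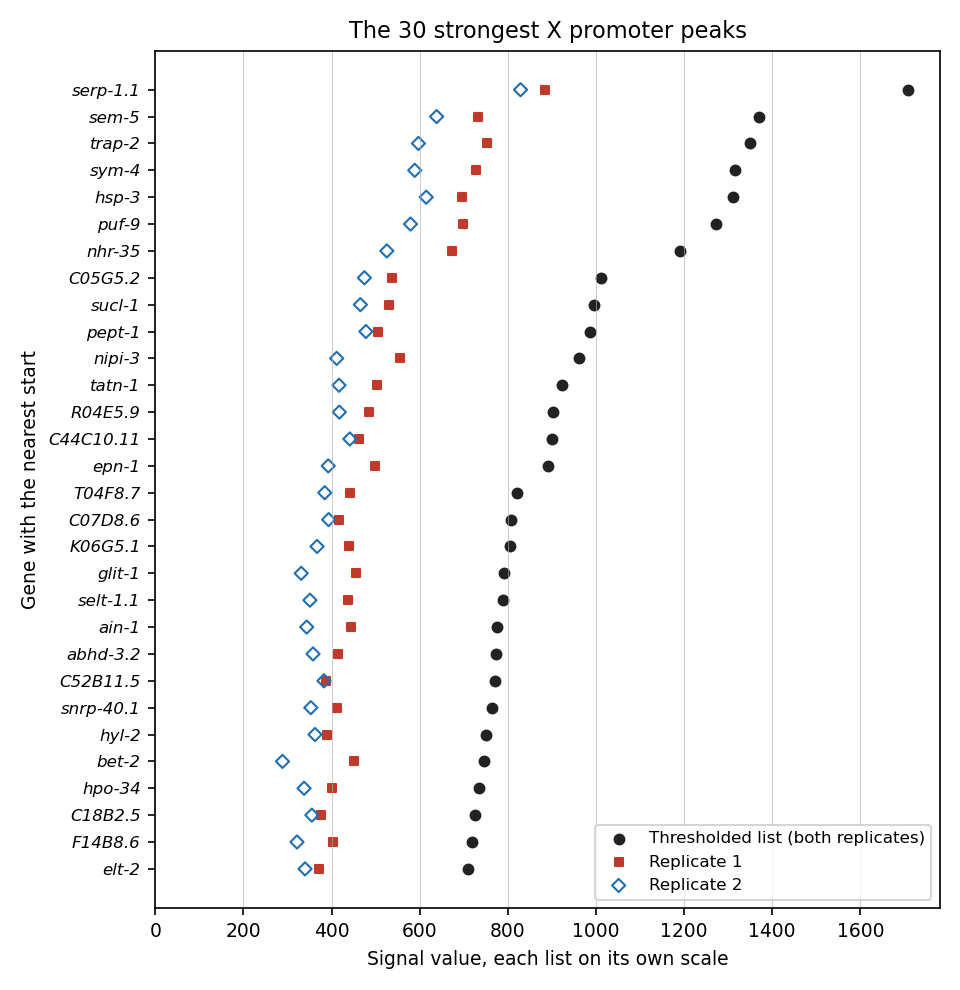
Signal values (horizontal axis, no unit, each list on its own scale) of the 30 strongest X promoter peaks that overlap a strong peak in both replicates, by the gene with the nearest start. Black dots are the thresholded list, red squares replicate 1 and open blue diamonds replicate 2, and the red square lies right of the blue diamond for every gene, from serp-1.1 (885 and 829) to elt-2 (371 and 340).

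Some strong members stood close together. Within 71.8 kb of X lay C05G5.2 (1013), sucl-1 (996), tatn-1 (922) and epn-1, for the endocytic adaptor epsin (891), and hyl-2 (750), dhhc-10 (694) and glit-1 (791) lay within 11.9 kb. The median gap between neighbouring members was 14706 bp, against 16071 bp between autosomal promoter summits. On X 171 of 662 gaps were under 5000 bp, a count not made for the autosomes. Of the gaps on X, 47 lay between 2 summits of the same peak interval, a case more common on X, as given below. The longest stretch without a member was 391311 bp. In windows of 1 Mb, the share of protein-coding genes with a summit ran from 13.6% of 154 genes between 1 and 2 Mb to 27.7% of 177 genes between 14 and 15 Mb.

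Pairs of summits in 1 interval made up 94 members, 47 pairs with gaps from 199 to 223 bp, so that 616 separate intervals carried the 663 members. The share in such intervals was 14.2% on X and 8.12% on the autosomes. Of 586 genes named as the nearest start, 510 had 1 member, 75 had 2 and 1 had 3.

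Genes on X more often had a promoter summit than genes on any autosome in the thresholded list and in the strongest peaks of each replicate. A summit counted here for every gene whose window held it. Over all 19973 protein-coding genes, 18.6% had a summit. On X it was 624 of 2731 genes (22.8%), with 22.5% in replicate 1 and 23.0% in replicate 2 (mean 22.7% ± 0.311, SD, n = 2). The autosomes ran from 16.3% on chromosome V to 21.7% on chromosome III. The SD covers repeats of 1 group and not how chromosomes vary, and the autosomes differed among themselves by more than X differed from chromosome III. With a longer list, the 9962 strongest pooled peaks, X had 26.8% and lay inside the autosomal range, which reached 28.6%. An exact permutation test over the 6 chromosomes, with 1 X against 5 autosomes, gave a two-sided p of 0.17. That is the smallest it can give, so no test here could call X different.

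Counted by length, X had 37.4 promoter summits per Mb, against 28.6 to 35.3 on the autosomes (two-sided exact permutation p = 0.5). The protein-coding genes of X stood at 154 per Mb, against 188 to 239 per Mb, and their promoter windows covered 17.6% of X, against 20% to 25.7%. Per Mb of promoter window, X had 213 summits (210 in replicate 1 and 216 in replicate 2) and the autosomes 136 to 171 (two-sided exact permutation p = 0.17, the smallest possible).

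Peaks of any strength were not more common at X genes. In the pooled list, which includes weak peaks and background, 1032 of the X genes (37.8%) had a promoter summit, within the autosomal range of 31.6% to 48.0%. Overlap with thresholded peaks was more common on X. It counts every pooled summit whose peak touches a thresholded peak, so it is more than the members themselves. Over all nuclear chromosomes, 48.3% of pooled promoter peaks overlapped a thresholded peak. On X it was 941 of 1526 (61.7%), and on the autosomes 40.9% to 51.8%. Below the threshold, X had 33.0 promoter summits per Mb of chromosome and the autosomes had 46.8 to 64.6. Per Mb of promoter window, X had 188 of these summits, inside the autosomal range of 182 to 320. The lowest member, at ztf-13, had 93.2, and the highest X promoter peak left below had 92.9.

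Signal was higher as well. The median of the members was 217, with quartiles at 143 and 363, and the medians of the autosomes lay between 180 and 193. In replicate 1 the X median was 120, against 100 to 107, and in replicate 2 it was 103, against 84.9 to 89.6. X lay above every autosome in all 3 lists (two-sided exact permutation p over the 6 chromosomes = 0.17 in the thresholded list, the smallest possible). Signal over 500 was found for 86 members (13.0%) and for 187 autosomal promoter summits (6.96%), and 32 of the 100 strongest promoter summits were on X.

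The higher level on X was seen at promoters. Thresholded X peaks outside promoters had a median signal of 194, inside the autosomal range of 192 to 202 for such peaks. Among summits in a single promoter window, the median was 216 on X and 189.9 on the autosomes. By position, members within 300 bp upstream had a median of 247, those between 300 and 500 bp had 203, those beyond 500 bp had 192 and those at or after the start had 197. On the autosomes the 4 classes had medians of 194, 181, 187 and 162. X was higher in each class, and the gap was widest next to the start.

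**Figure D2:**
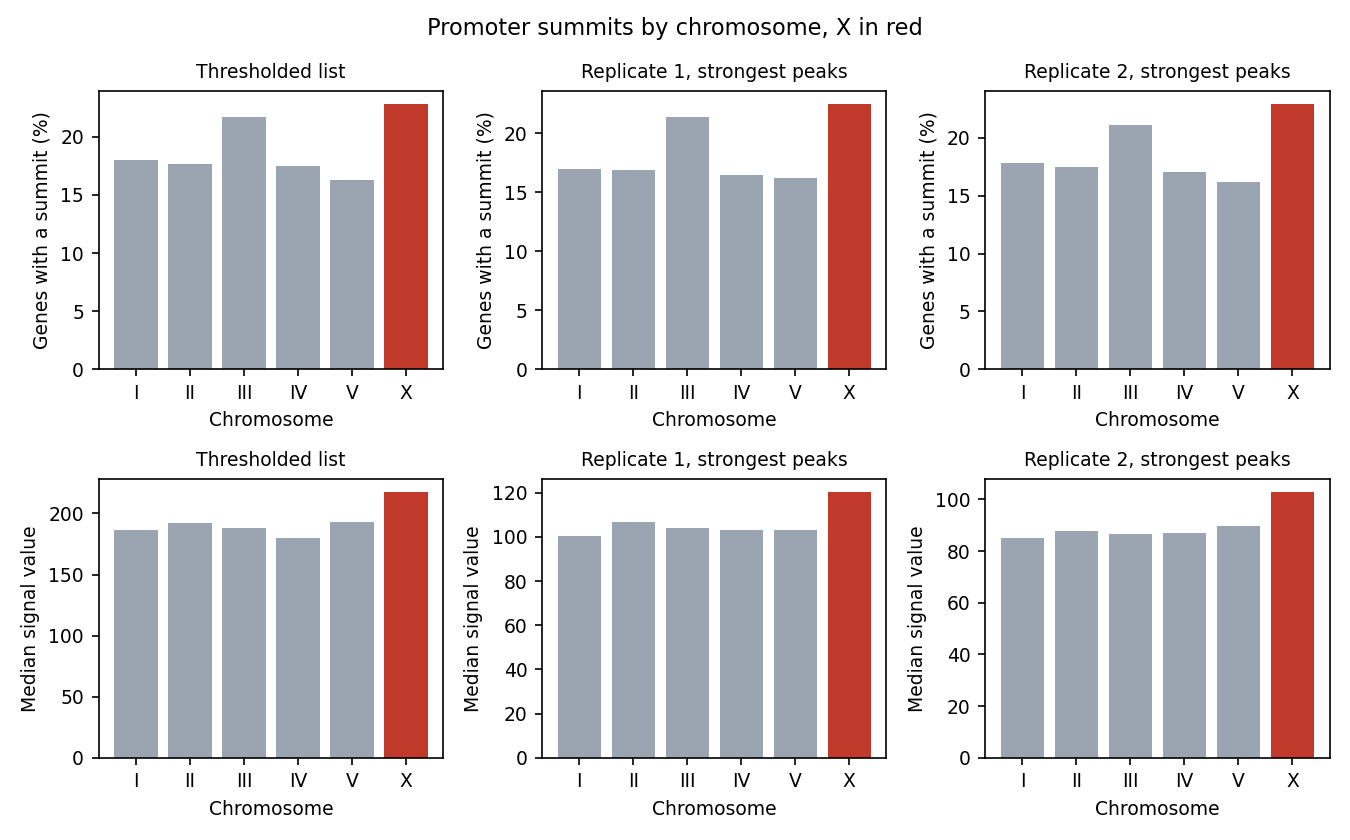
The upper row gives the share of protein-coding genes with a promoter summit (%) and the lower row the median signal value of promoter summits (no unit, each list on its own scale), by chromosome, in the thresholded list and in the strongest peaks of each replicate. The X bar (red) is the tallest in each of the 6 panels, at 22.8%, 22.5% and 23.0% above and at 217, 120 and 103 below.

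Most members were strong in both replicates. As many of each replicate's strongest peaks were used as the thresholded list holds. Of the 663 members, 636 overlapped one of these in replicate 1, 646 in replicate 2 and 619 in both, which is 93.4% (95% Wilson interval 91.2 to 95.0). For autosomal promoter summits it was 88.5%. The thresholded list was made from these replicates, so this is a description and no independent test. Across the 662 members with a peak in both full lists, Spearman's rho of the replicate values was 0.954, over peaks that share libraries and, for the pairs of summits, values. The replicates' summits were a median of 20 bp apart, and within 50 bp for 571 members (86.3%).

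A few members rested on 1 replicate. The peak at set-20 had 179 in the thresholded list, 17.8 in replicate 1 and 87.2 in replicate 2. The peak at R04A9.3 had 117, 16.3 and 55.9 in the same order, and that at mfsd-11 had 106, 77.1 and 28.6. A second summit near plpp-1.3 (153 in the thresholded list, 89.8 in replicate 1) overlapped no peak of replicate 2. These were weak members, all under the members' median of 217.

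**Figure D3:**
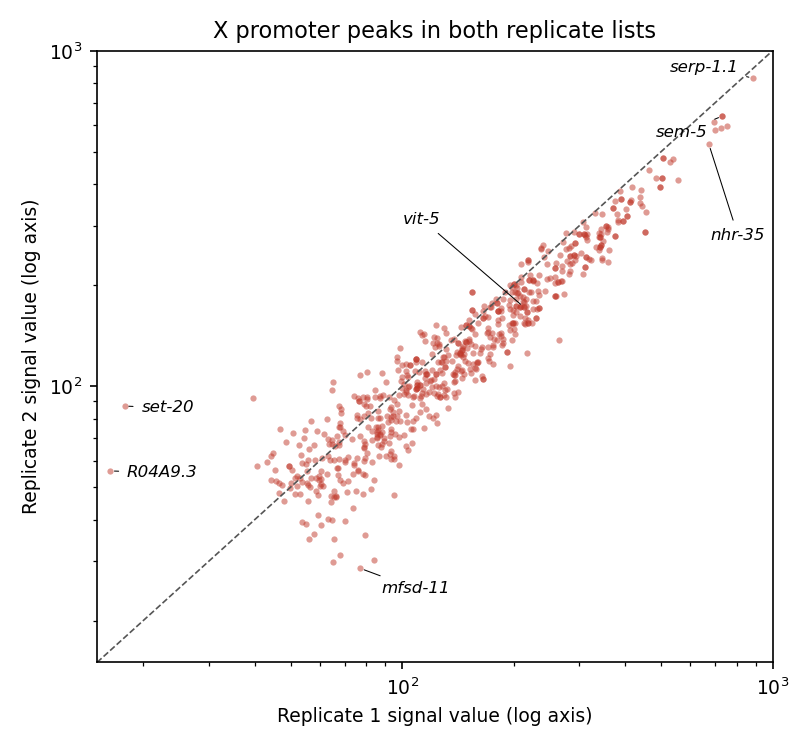
Each point is 1 X promoter peak found in both replicate lists, by its signal value in replicate 1 (horizontal) and replicate 2 (vertical), on log axes without units. The dashed line marks equal values: most points lie just below it, and set-20, R04A9.3 and mfsd-11 stand off it.

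The rule placed every member between 1000 bp upstream and 200 bp downstream of a start, so most of the allowed positions were upstream and the values here only describe the members. The median position was -213 bp (-222 in replicate 1 and -216 in replicate 2), against -208 to -148 bp on the autosomes under the same rule, and 91.3% lay upstream. The median was -177 bp with a window of 500 bp before and 100 bp after the start, and -286 bp with 2000 and 500 bp. Within 300 bp upstream were 347 members (52.3%), against 55.6% to 58.2% on the autosomes. The share between 300 and 500 bp upstream was 19.2% on X and 13.3% on the autosomes together. Beyond 500 bp were 131 members (19.8%, inside the autosomal range of 16.4% to 21%). The last 100 bp inside the upstream edge of the window held 33 members with a median signal of 168, and the next 100 bp outside it held 14 X summits with a median of 189. At the downstream edge the 2 counts were 21 and 9.

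**Figure D4:**
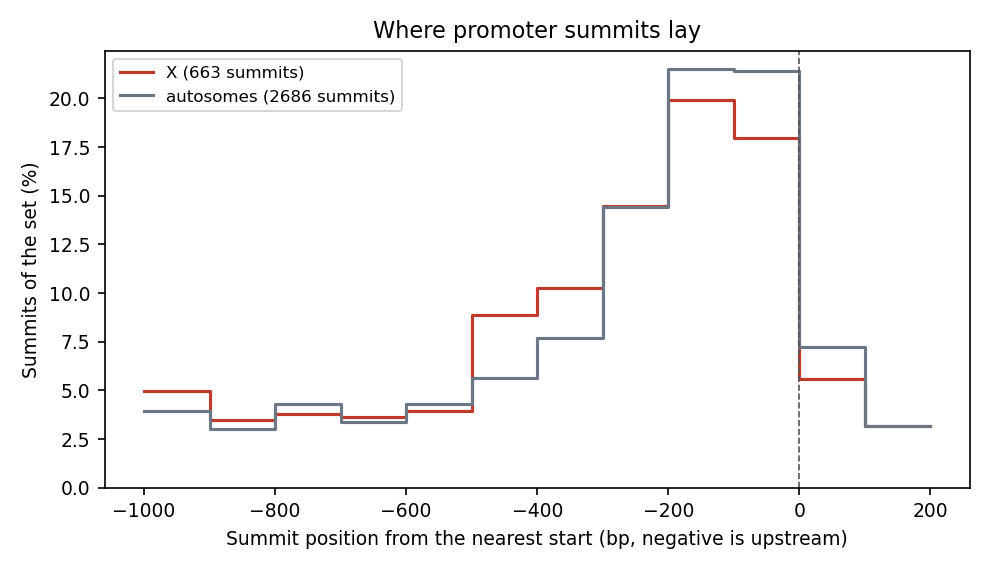
Share of promoter summits (%) in steps of 100 bp by position from the nearest protein-coding start, negative upstream, for X (red) and the autosomes together (grey). X has fewer summits in the 100 bp before the start (17.9% against 21.4%) and more between 300 and 500 bp upstream.

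Promoters shared by neighbouring genes were rare. The summit lay in 2 or more windows for 50 members (7.54%, 8.10% in replicate 1 and 7.70% in replicate 2), against 20.9% to 27.8% of the summits of an autosome. Of the 50, 46 had starts on opposite strands, as had 586 of the 634 shared autosomal promoters. The layout of genes differed in the same way before any peak was counted: 5.05% of the promoter window of X lay in 2 or more windows, against 11.2% to 13.1% on the autosomes (two-sided exact permutation p over the 6 chromosomes = 0.17, the smallest possible, for both measures). The strongest of the shared promoters after trap-2 and ile-2 were R04E5.9 with cnnm-2 (903 in the thresholded list, 485 in replicate 1 and 418 in replicate 2) and glit-1 with dnj-14 (791, 455 and 331). Members in shared promoters had a median signal of 252 and the others 216.

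TGATAA was the most common of the 10 sequences counted within 50 bp of the summit. All were searched on both strands. TGATAA was present at 216 members (32.6%, 95% Wilson interval 29.1 to 36.2, for counting error only), with 32.4% in replicate 1 and 30.7% in replicate 2. In flanks of nearly the same length, 201 to 250 bp from the summit on both sides, it was at 69 (10.4%). Windows of the same length centred 213 bp upstream of all X protein-coding starts held it in 11.2%, and X promoter summits below the threshold in 16.8%. Autosomal promoter summits ranged from 27.8% to 41.6%, so X lay inside their range. Among summits above the median signal of the thresholded peaks, X had 34.0% and lay below the autosomal range of 36.3% to 45.9%.

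In the thresholded list the median signal was 223 for the members with TGATAA, 248 for the 54 of them with 2 or more matches and 215 for the members without it. By replicate values, members without TGATAA had the highest median. For members with it, with 2 or more matches and without it, the medians were 130, 132 and 138 in replicate 1. In replicate 2 they were 116, 118 and 119. This is not the same measure, because 2 summits of 1 interval take the same replicate value, that of the strongest overlapping peak. The 94 members in such pairs had TGATAA at 22.3% and the others at 34.3%. The effect of this on the medians was not tested. TGATAA stood at 29.5% of the 166 weakest members and at 33.7% of the 166 strongest, while autosomal summits between the same limits had 29.1% and 37.7%. Among summits from 218 to 363 the shares were 34.5% on X and 44.3% on the autosomes. Among the 30 strongest members, 7 had it. Matches numbered 4.10 per 1000 positions within 25 bp of the summit, 4.56 between 25 and 50 bp and 1.30 between 200 and 250 bp.

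Of the other 9 sequences, CTGCGTCT stood at 35 members (5.28%) and 0.302% of the flanks, GAGAGAGA at 29 (4.37%) and 1.36%, and GCGCGC at 26 (3.92%) and 0.754%. All X starts held them at 0.952%, 1.21% and 1.24%. Autosomal promoter summits held CTGCGTCT at 6.03% to 8.12%, above X. For GAGAGAGA the autosomes ran from 3.14% to 6.73% and for GCGCGC from 2.60% to 4.40%, with X inside both ranges. The hormone receptor half-site AGGTCA was at 21 members (3.17%) and 3.02% of the flanks, and AAAGTCC, a stretch of HNF4-type sites, at 8 (1.21%) and 1.06%. The E-box CACGTG was at 22 (3.32%) and 2.26% of the flanks, and GGGCGG, the core of Sp-type sites, at 18 (2.71%) and 0.905%. Windows at all X starts held CACGTG in 1.43% and GGGCGG in 2.53%, so GGGCGG was about as common there as at the members. Autosomal promoter summits held GGGCGG at 3.84% to 8.35%, above X. TTTCAG, the ending of worm introns, was less common at summits, at 48 (7.24%), than in the flanks (17.3%). On the autosomes TTTCAG stood at 8.39% to 10.9% of promoter summits, above X. GCGCAGGG, a core of sites where the dosage compensation complex is recruited, was at 2 members, at ins-39 and nspc-17, and in 0 of 663 flanks. A match is a stretch of letters and not a binding site, and 311 members (46.9%) had none of the 10.

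Base composition differed with the signal. The members' summits had 43.1% G and C and their flanks 34.3%, with 41.2% and 34.3% at autosomal promoter summits. By chromosome, the summits of the autosomes ran from 39.43% on V to 43.13% on I, so X, at 43.08%, lay inside their range. X lay inside the autosomal range in replicate 1 and in replicate 2 as well. In 4 groups of members of nearly equal size, from weak to strong, the share was 40.4%, 42.8%, 43.4% and 45.8%. Between the same limits the weakest autosomal summits had 40.3% and the strongest 43.6%. X had 276 tRNA genes, against 57 to 78 on an autosome, and 21 members lay within 200 bp of one, against 5 to 8. These 21 had a median signal of 121 and a highest of 268, so they were not among the strong members. Without them the median on X was 221.

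The share of genes with a summit differed widely between role lists, and only the yolk proteins reached all their X genes. The counts by role that follow are of X genes in lists chosen by function or by gene name, they carry no test, and the background is the 18.6% of all protein-coding genes. All 5 vitellogenin genes of X, which encode the yolk proteins made in the intestine of adult hermaphrodites, had a summit between 82 and 156 bp upstream of the start. The peak at vit-5 had 381 in the thresholded list, 213 in replicate 1 and 172 in replicate 2. At vit-2 the values were 342, 154 and 191, at vit-1 310, 192 and 127, at vit-4 290, 171 and 119, and at vit-3 275, 138 and 138. TGATAA lay within 50 bp of the summit in each but vit-3, and vit-1, vit-2 and vit-5 had a second summit up to 120 bp after the start. Several vitellogenin genes are close copies of one another, so reads could be shared between them, and how the authors placed such reads is not given in the sources used here.

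Among 8 intestine markers of X, 6 had a summit (75%, 69.2% of the autosomal members). They were pept-1 (988), elt-2 (710), the aspartyl protease gene asp-4 (394), the cathepsin B gene cpr-6 (323), the P-glycoprotein gene pgp-3 (216) and elt-4, a GATA factor gene next to elt-2 (199.7). In replicate 1 and replicate 2 asp-4 had 195 and 200, cpr-6 had 185 and 141, and pgp-3 had 126 and 93.0. The 2 without were asp-3 and ifc-2. A second, weaker summit at elt-2 (128) lay 274 bp upstream and shared the interval of the first. In the wider list of digestive proteases and transporters it was 8 of 25 (32.0%, autosomes 34.8%), with the ABC transporter genes mrp-3 (586) and mrp-5, known for haem export (535), above asp-4.

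In lipid metabolism, the field in which NHR-80 is best known, 14 of 26 X genes had a summit (53.8%, 49.7% on the autosomes), and 14 in each replicate. The strongest after hyl-2 were the fatty acid-binding protein gene lbp-3, with 540 in the thresholded list, 295 in replicate 1 and 244 in replicate 2, and the glucosylceramide synthase gene cgt-2, with 434, 222 and 214. The peroxisomal gene dhs-28, which acts in the shortening of ascaroside side chains, had 395, 204 and 190. Both hyl-2 and cgt-2 act in sphingolipid synthesis. The other summits ran from 375 at the sphingomyelinase gene asm-2 down to 104.1 at sams-1, for S-adenosylmethionine synthetase. Without a summit were 12, among them the acyl-CoA synthetase genes acs-9, acs-17 and acs-22, and also pcyt-1 and pcyt-2.2.

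Of 27 nuclear hormone receptor genes on X, 12 had a summit (44.4%), against 27.9% of 247 on the autosomes, and the count was 12 in each replicate. After nhr-35 and nhr-3 came nhr-1, with 368 in the thresholded list, 214 in replicate 1 and 153 in replicate 2, and nhr-71, with 346, 199.6 and 154. The rest ran from 308 at nhr-32 to 137 at nhr-17, and the summits of nhr-40 and nhr-120 lay at -998 bp, at the edge of the window. The steroid hormone receptor gene daf-12 had no thresholded summit in its window: a weak pooled peak lay at -920 bp (5.22), while a thresholded peak of 699 lay 1709 bp after the annotated start. The nearest thresholded summit was 6570 bp after the start of daf-9, which makes the DAF-12 hormone, and at -17512 bp from the start of nhr-25.

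Among 45 other transcription factor genes, 10 had a summit (22.2%, autosomes 16.9%). The highest after elt-2 were atf-6, of the unfolded protein response, with 674 in the thresholded list, 346 in replicate 1 and 326 in replicate 2, and ets-4, with 617, 341 and 278. The PBX-type homeobox gene ceh-60, known for a part in yolk production, had 472, 268 and 206. The remaining 6 ran from 297 at ceh-37 to 107 at hlh-13, with atf-4 at 297.

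Of 21 genes of growth factor, insulin and TGF-beta signalling, 9 had a summit (42.9%), against 17.1% of 70 on the autosomes, with 8 in replicate 1 and 10 in replicate 2. After sem-5 came nipi-3, for a Tribbles-like pseudokinase, with 961 in the thresholded list, 555 in replicate 1 and 412 in replicate 2, the glypican gene lon-2 with 406, 234.6 and 171 and the beta-catenin gene bar-1 with 376, 195 and 181. The insulin-like peptide gene ins-39 had 321, and the kinase genes akt-2 and sgk-1 had 235.1 and 172. The lowest, mom-1 (114), shared its summit with the nearer start of lev-9.

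Housekeeping genes of secretion and energy were covered at shares well over the background, though the lists are short on X. In protein synthesis and secretion it was 9 of 12 (75%, autosomes 55.2%), with trap-2, hsp-3, eef-1A.2 (661, with a close autosomal copy) and the exocyst gene sec-3 (523) highest. In energy metabolism it was 4 of 5 (autosomes 50%), with none at gas-1. The 4 were sucl-1, sdha-1 for succinate dehydrogenase (560), aco-1 for an aconitase (293) and idh-2 for isocitrate dehydrogenase (202). Of the genes of the vacuolar ATPase, lysosome and autophagy, 8 of 10 had one (autosomes 54.2%), led by the pump subunit gene vha-12 (627), the scavenger receptor gene scav-1 (606) and epg-7 (474), with vha-15 at 275. Of 15 detoxification genes it was 7 (46.7%, autosomes 44.8%), with gst-42 (504), ugt-50 (396), ugt-46 (280) and gst-36 (271) highest. The summit in the window of gst-36 lay nearer to the start of R07B1.5. Of 3 genes of membrane traffic GTPases it was 0 (autosomes 27.6%).

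Markers of other tissues were seldom covered. A summit was found at 1 of 49 neuron genes, mec-10, for a channel subunit of touch neurons (373 in the thresholded list, 188 in replicate 1 and 182 in replicate 2), at 0 of 7 muscle genes and at 2 of 33 cuticle and hypodermis genes, col-185 (132) and the GATA factor gene elt-3 (124). The autosomal shares of these lists were 3.33%, 9.09% and 5.56%. X had just 2 genes of the germline list, and the one with a summit, puf-9, had been included by family name.

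Genes of sex determination and dosage compensation were a small group. The gene sdc-2, whose product starts the assembly of the dosage compensation complex on X in hermaphrodites, had 332 in the thresholded list, 165 in replicate 1 and 167 in replicate 2, with its summit at -450 bp. Its partner sdc-1 had 179, 84.6 and 92.7, at -322 bp. The counting switch gene xol-1 had no summit in its window, the nearest lying at -4624 bp (271), and fox-1 and sex-1 had none. That makes 2 of 5 on X, against 2 of 15 on the autosomes.

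**Figure D5:**
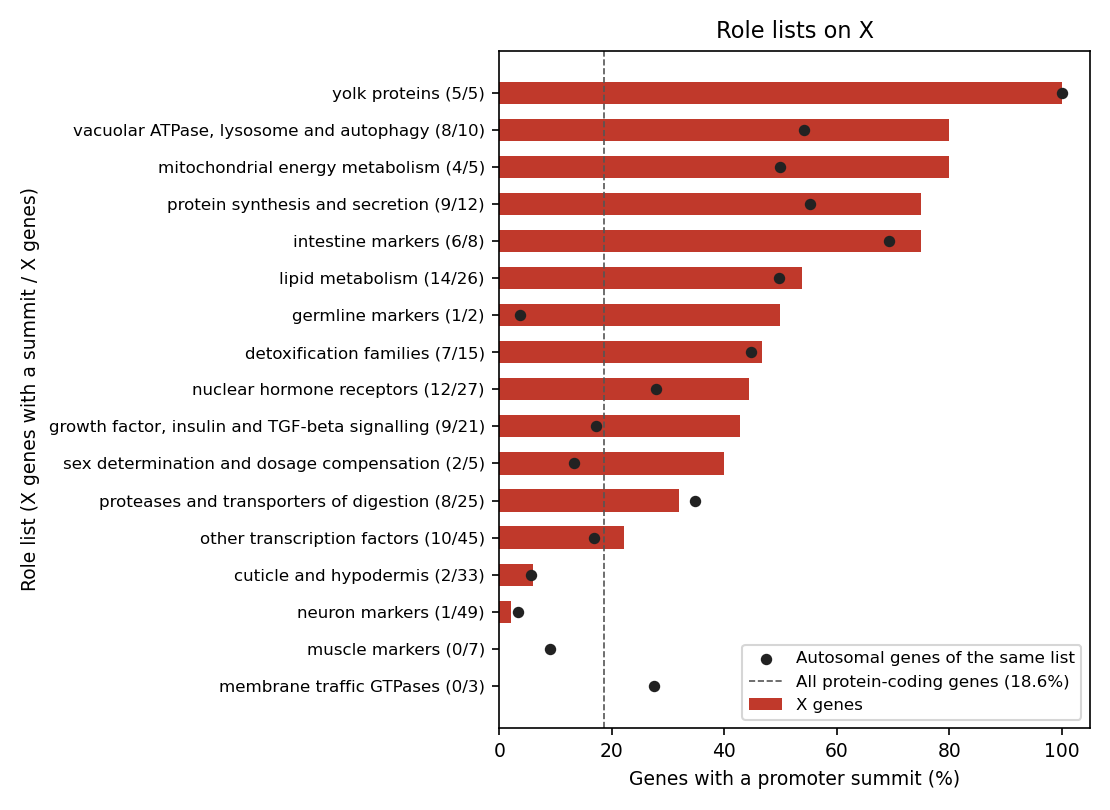
Share of X genes with a promoter summit (red bars, %) in each of the 17 role lists, with the count beside the list's name, the share of the list's autosomal genes (black dots) and the share of all protein-coding genes (dashed line, 18.6%). Lists of yolk, lysosome, energy, secretion and intestine genes reach 75% or more, and neuron, muscle, cuticle and membrane traffic lists lie under the line.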

How the data were processed

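The authors deposited narrowPeak lists for each replicate, for both pooled and for the thresholded set, on builds ce10 and ce11. Per the notes deposited with the samples, the calls used a control, and IDR, which keeps peaks whose ranks reproduce, gave the thresholded list from the other lists. The signal value per peak is the deposited score of the authors' caller, used here within each list only. No source used here names the aligner, the caller or the limit used for IDR. Peak lists hold no read counts: the sequencing depth is unknown, and Wilson intervals cover counting error only.

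The ce11 lists were compared with WBcel235 and the genes of Ensembl release 115. A summit counted for every protein-coding gene whose window held it, and each member was named by the nearest start. Overlap meant at least 1 bp. The sequence windows reached 50 bp on each side of the summit. Chromosomes were compared by an exact permutation test, and no test was made over peaks or genes. The members, the 17 role lists and the 10 sequences were chosen with earlier results of these data known. Genes named are the 30 strongest members that were strong in both replicates, up to 4 per role list, and elt-2, vit-1 to vit-5, daf-12, daf-9, nhr-25, sdc-1, sdc-2 and xol-1. Others were named after their values were seen. Alternatives were other windows, thresholds, overlaps, motif windows and each replicate alone. Calculations ran in Python 3.11.15 (pandas 2.3.3, numpy 2.4.6, matplotlib 3.10.9 and scipy 1.17.1), and the functions were tested on simulated peaks.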

Additional observations from a re-analysis of the deposited data

How the results depend on the processing

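With 1 replicate alone, X held 654 to 675 promoter summits (19.7% to 20.2% of all), 22.5% to 23.0% of X genes had one, the ratio of the median signal on X to that on the autosomes was 1.16 to 1.17 (1.15 for the thresholded list) and TGATAA stood at 30.7% to 32.4% of summits. With windows of 500 bp before and 100 bp after the start, 18.5% of X genes had a summit, the ratio was 1.19 and 7.23% of summits lay in shared promoters. With 2000 and 500 bp these were 29.4%, 1.08 and 16.8%. Giving each summit to the nearest start alone left 21.5% of genes. Above the median signal of the thresholded peaks there were 379 members, 22.7% of promoter summits, at 14.5% of genes, with a ratio of 1.11, TGATAA at 34.0%, 8.71% in shared promoters and 100% strong in both replicates. With the strongest summit of each interval, X held 19.3% of summits, the ratio was 1.185 and TGATAA stood at 34.3%. TGATAA was at 17.2% within 25 bp and at 44.5% within 100 bp. Sharing with both replicates was 86.3% when the overlap had to cover 50% of the peak and 81.3% when summits had to lie within 50 bp.

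A longer list was tried after seeing the data, with as many of the strongest pooled peaks as the 9962 of the thresholded ce10 list. X then held 18.5% of promoter summits, 26.8% of its genes had one, inside the autosomal range that reached 28.6%, and so was the density of 48.0 per Mb. The ratio was 1.205 and TGATAA stood at 30.9%. The median signal on X lay above every autosome and the share in shared promoters below every autosome under each of the window, threshold, interval, replicate and list-length settings. The share of genes with a summit lay above every autosome in all of them but the longer list. Above the median signal, the share with TGATAA fell below every autosome (36.3% to 45.9%). The cause was not tested. No paired analysis was possible because there was 1 group. The unknown depth and the pair of replicates limit how small a difference can be seen, and 1 X against 5 autosomes cannot pass a test.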
